A study of Mus musculus with 48 samples.

Results

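Trp53 and 9 of its well-known target genes (Mdm2, Cdkn1a, Bax, Bbc3, Ccng1, Plk2, Zmat3, Sesn2 and Phlda3) were followed in the mouse striatum across 6 genotype groups. They were taken by symbol from a table of 48795 genes. Each of the 10 matched a single row, and all 10 were among the 19975 genes with enough reads to be tested.

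Trp53 encodes p53, a transcription factor that is held at low levels by the ubiquitin ligase Mdm2 and is stabilised when DNA is damaged or a cell is under other stress. Active p53 binds paired decamers in DNA and switches on genes that stop the cell cycle, drive apoptosis, limit growth signalling or feed back on p53 itself. Neurons do not divide, so in brain the pathway is known mainly for its part in neuronal death and in the response to DNA breaks; several of its targets, such as Plk2, are also switched on by synaptic activity independently of p53. Much of the regulation of p53 acts on the protein, which RNA counts do not measure.

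RNA was sequenced from the striatum of mice aged 6 months on a C57BL/6 background, in 48 libraries from 24 females and 24 males. The groups were Q140 Msh3-/- (n = 8), Q140 Msh3+/- (n = 8), Q140 (n = 8), Msh3-/- (n = 8), Msh3+/- (n = 9) and wild type (n = 7). All 3 Q140 groups carry 1 copy of a knock-in allele of the mouse's own Htt gene with a long CAG tract, a model of Huntington's disease that needs no transgene promoter. The protein made from Msh3 recognises extrusion loops in DNA as part of mismatch repair and is known to drive the somatic lengthening of CAG tracts; how its mutant allele was made is not given in the labels. No deletion or treatment is shared by all groups. One mouse per library was assumed, as the labels leave this unsaid, so p-values take the spread between these samples as that between mice. Some samples share a code in their column label, within and across groups. What the code stands for is not given, and its part was not tested.

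Library totals ran from 33.7 to 52.8 M reads counted to genes, with a median of 45 M, so that the rarest of the 10 transcripts, Bbc3, still had 90 to 266 counts per library. Msh3 RNA was higher in libraries with a mutant Msh3 label, the reverse of what a loss of the whole transcript would give. Its ranges separated the Msh3 genotypes in the order of the labels. It stood at 118 to 135 CPM in libraries labelled Q140 Msh3-/-, 73 to 81.8 in Q140 Msh3+/- and 29.5 to 33.2 in Q140. Without Q140 it stood at 111 to 131 in Msh3-/-, 68.2 to 85.4 in Msh3+/- and 29.1 to 33 in wild type. CPM are a gene's counts scaled to a common library size, here with TMM factors, which make the bulk of genes comparable between libraries. Gene totals do not show which exons were read. Groups are therefore named by their labels throughout, and every direction along the Msh3 genotype rests on those labels. In the libraries labelled Q140, 12 of 13 markers of medium spiny neurons, the main neurons of the striatum, fell and 1 rose against wild type, and 1 library, Q140 Msh3+/- F1, held far more choroid plexus RNA than the rest.

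The genes differed widely in abundance. On the length-corrected FPKM scale in wild type striatum (n = 7), Plk2 led with 98.7 ± 8.2 (mean ± SD), ahead of Bax with 13 ± 0.668, Zmat3 with 12.4 ± 0.683, Mdm2 with 11.4 ± 0.192 and Ccng1 with 11.2 ± 0.726. Cdkn1a followed with 6.64 ± 0.658, Trp53 with 5.18 ± 0.324 and Phlda3 with 4.24 ± 0.422, and Sesn2 at 1.81 ± 0.177 and Bbc3 at 1.61 ± 0.219 came last. Only 3 neighbours in this order had ranges that did not overlap, namely Plk2 above Bax, Ccng1 above Cdkn1a and Phlda3 above Sesn2. The order among Bax, Zmat3, Mdm2 and Ccng1 was therefore within the spread between libraries. The genes also differed in how much they varied between libraries of the same group: the biological coefficient of variation was highest for Cdkn1a, at 20.8% (the 80th percentile of all genes tested), and lowest for Bax, at 4.61% (percentile 7.39). Bbc3 followed Cdkn1a at 15.2% and Phlda3 came next at 11.2%, and Mdm2, Trp53, Plk2, Zmat3, Ccng1 and Sesn2 lay between 5.17% and 8.89%. The Cdkn1a value includes Q140 Msh3+/- F1, which was at 25 CPM. The SD of Cdkn1a was 5.49 CPM in that group and 1.54 to 2.33 CPM in the other groups.

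**Figure D1:**
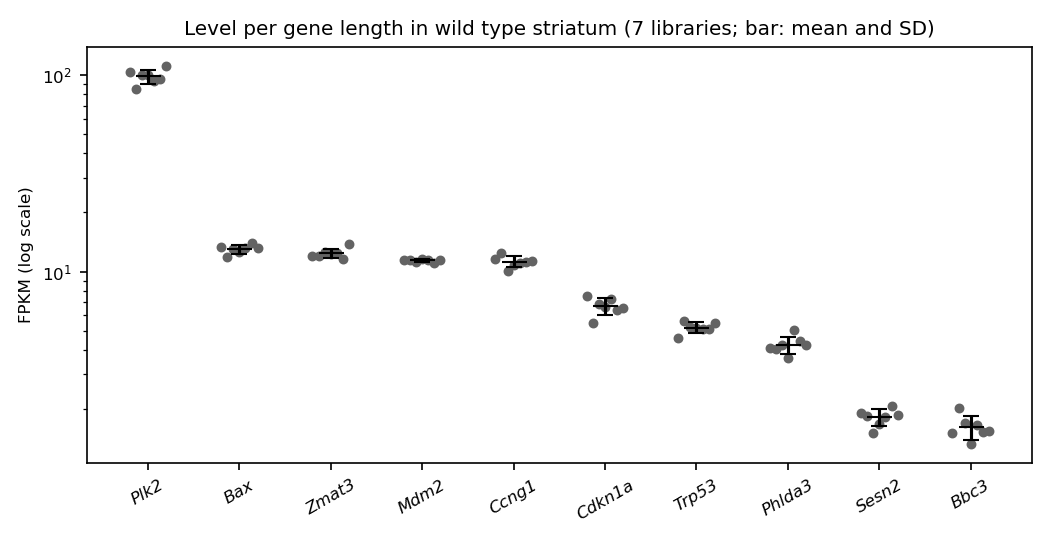
Level of each of the 10 genes in the 7 wild type libraries on a logarithmic FPKM axis (counts per gene length and library total); points are libraries and bars are mean and SD. Plk2, at 98.7 FPKM, lies far above the others, and Sesn2 and Bbc3 lie below 2.1 FPKM.

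Promoter sequences are shown for 4 genes that were called in a comparison with Q140, because they differ in whether they hold the p53 decamer, the 10-base consensus unit of a p53 response element. RefSeq promoters on GRCm38.p6, from 250 bases before to 50 bases after the annotated start, were found for 9 of the 10 genes (12 promoters; none for Zmat3), and both strands were searched for the decamer and for a full element of a decamer pair separated by 0 to 13 bases. Capitals mark the decamers.
Cdkn1a (chr17:29090729-29091028, + strand): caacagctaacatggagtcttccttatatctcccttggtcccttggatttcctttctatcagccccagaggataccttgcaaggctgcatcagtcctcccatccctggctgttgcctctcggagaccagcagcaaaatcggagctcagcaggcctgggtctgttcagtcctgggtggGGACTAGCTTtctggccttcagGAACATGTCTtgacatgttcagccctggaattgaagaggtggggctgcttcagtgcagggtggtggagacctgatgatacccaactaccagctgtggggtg
Trp53 (chr11:69580109-69580408, + strand): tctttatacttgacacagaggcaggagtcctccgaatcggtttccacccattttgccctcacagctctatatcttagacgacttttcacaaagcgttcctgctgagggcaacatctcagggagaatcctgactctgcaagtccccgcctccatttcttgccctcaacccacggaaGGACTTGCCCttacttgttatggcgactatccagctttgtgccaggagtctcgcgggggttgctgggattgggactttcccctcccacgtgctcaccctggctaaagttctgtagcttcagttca
Bax (chr7:45466849-45467148, - strand): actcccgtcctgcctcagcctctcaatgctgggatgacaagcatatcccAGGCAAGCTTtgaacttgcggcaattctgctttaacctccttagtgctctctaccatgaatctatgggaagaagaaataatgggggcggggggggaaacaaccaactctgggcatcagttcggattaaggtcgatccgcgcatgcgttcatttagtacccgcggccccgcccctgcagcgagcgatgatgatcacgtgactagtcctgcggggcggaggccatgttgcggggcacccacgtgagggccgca
Plk2 (chr13:110394794-110395093, + strand): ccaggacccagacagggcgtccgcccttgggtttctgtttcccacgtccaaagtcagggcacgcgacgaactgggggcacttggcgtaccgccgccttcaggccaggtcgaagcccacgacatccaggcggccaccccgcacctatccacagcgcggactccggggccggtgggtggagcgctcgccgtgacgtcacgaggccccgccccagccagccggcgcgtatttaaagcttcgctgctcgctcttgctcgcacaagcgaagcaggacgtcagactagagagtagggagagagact
The upstream promoter of Cdkn1a held a full element, with decamers starting at positions -73 and -51 from the start. Its other promoter (chr17:29093519-29093818), not shown, held no decamer. Trp53 held a single decamer at -75 and Bax at -201, and the Plk2 window held none. A decamer was also present in Mdm2 at -186 (GAACTTGCCT) and in Ccng1 at -185 (GGGCAAGCCT), but not in the windows of Bbc3, Sesn2 and Phlda3. Thus 5 of 9 genes (55.6%) had a decamer, against 9.55% of all 27025 genes with a promoter of this length, and a full element occurred in 0.074% of genes. The 10 genes were chosen as known p53 targets, so a higher share follows from that choice and is no finding of these data. These matches describe letters in the window and do not show binding; because the decamer reads as its own reverse complement in its consensus, matches on both strands fell on the same bases.

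Across the comparisons, changes among the 10 genes were small in size and went in both directions. In Q140 against wild type, 2 rose (Trp53 and Bax) and 3 fell (Plk2, Zmat3 and Cdkn1a) in edgeR's quasi-likelihood test at an adjusted p under 0.05, where 19.9% of all genes tested were called (9.64% higher and 10.2% lower). In libraries labelled Q140 Msh3-/- against Q140, 1 rose (Plk2) and 3 fell (Trp53, Sesn2 and Phlda3), beside 11.9% of all genes (6.85% higher and 5.04% lower). In Q140 Msh3+/- against Msh3+/-, 1 fell (Plk2), beside 6.45% of all genes (2.96% higher and 3.49% lower). In Q140 Msh3+/- against Q140 the edgeR count was 0, beside 1.98% of all genes, and DESeq2 called 1. In edgeR 5 of the 10 had an unadjusted p under 0.05, beside 3217 of all 19975 genes tested. The comparisons of Q140 with wild type and of either Q140 Msh3 group with Q140 share the Q140 libraries, so their values are set side by side below and are not independent. The median change of the 10 genes was 0.03 in Q140 against wild type and -0.05 in Q140 Msh3-/- against Q140, close to the medians over all genes of 0.01 and -0.01 (log2).

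**Figure D2:**
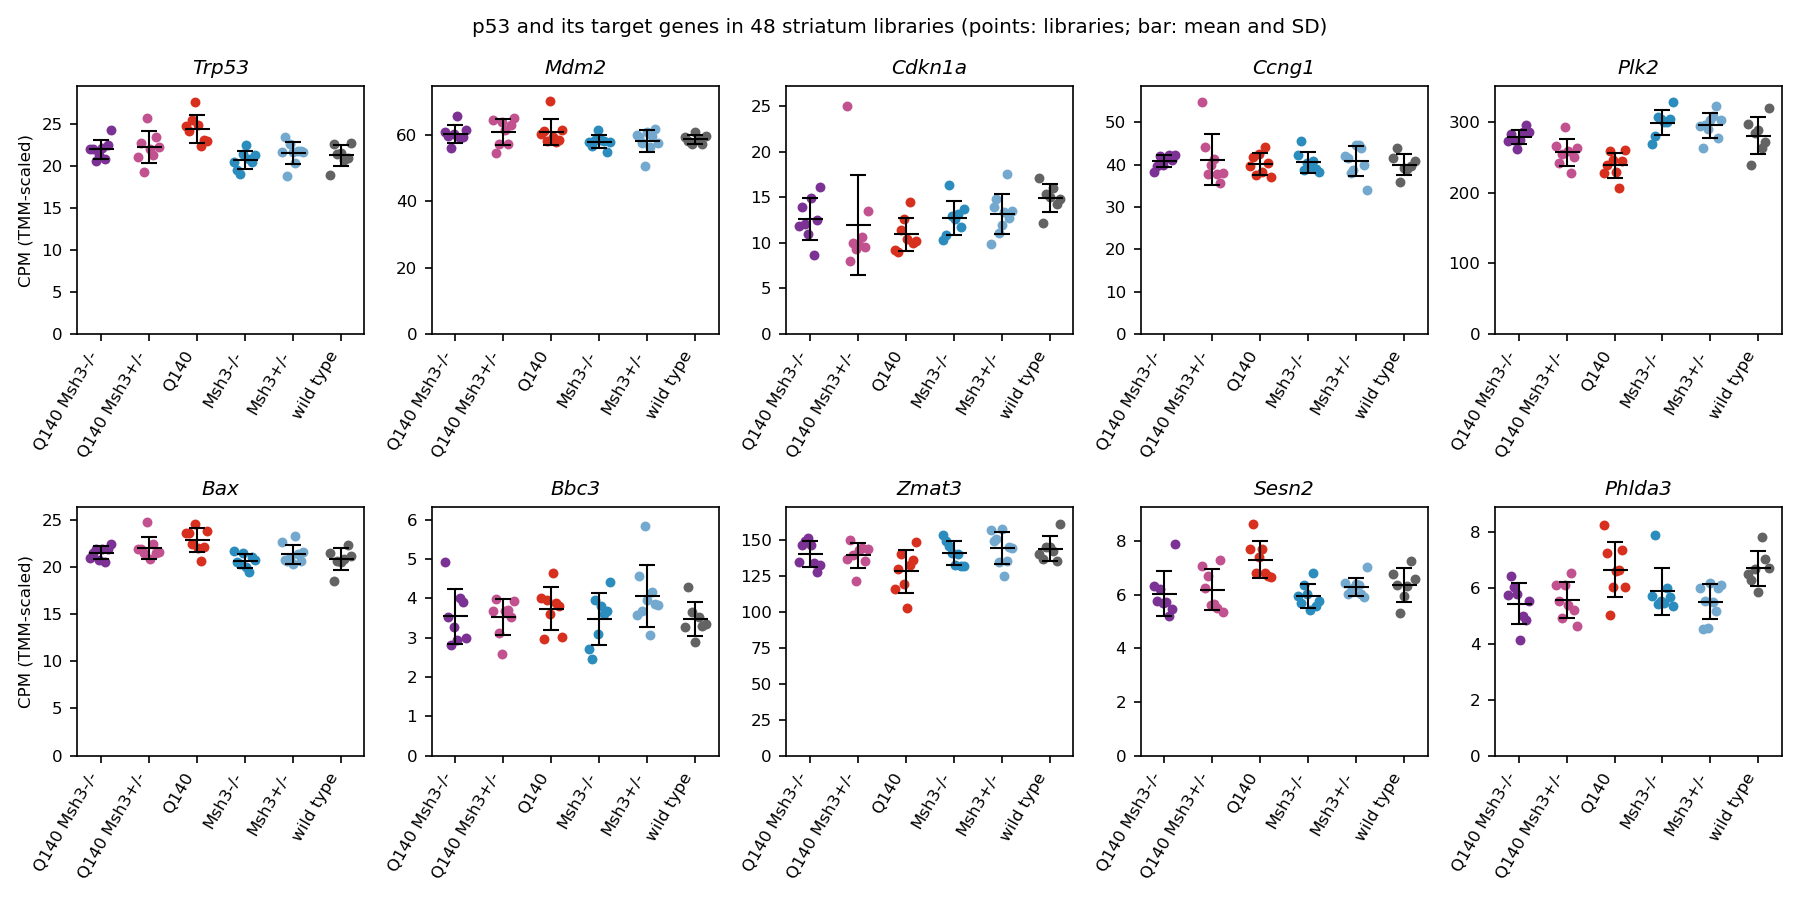
Level of each gene in CPM (vertical axes, from 0) in each of the 48 libraries, by genotype group; points are libraries and bars are mean and SD. In Plk2 the 8 Q140 Msh3-/- libraries, at 262 to 296 CPM, all lie above the 8 Q140 libraries, at 207 to 260 CPM, and a single Q140 Msh3+/- library stands apart in Cdkn1a and Ccng1.

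How the libraries are scaled weighs on the balance of directions. With scaling by library totals in place of TMM, the count in Q140 against wild type stayed at 5 but was split into 4 higher and 1 lower, in step with all genes, of which 5076 were called higher and 1104 lower with library totals and 1926 higher and 2043 lower with TMM (median log2 changes of 0.10 and 0.01). The same scaling in Q140 Msh3-/- against Q140 gave 1 higher and 4 lower among the 10 genes, and 804 higher and 3463 lower in place of 1368 and 1006 among all genes.

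Trp53 RNA was modestly higher in Q140 striatum and Mdm2 RNA was not detectably different. Trp53 (ENSMUSG00000059552; GRCm38 chr11:69580359-69591873, + strand) ran from 20.6 to 24.3 CPM (median 22) in Q140 Msh3-/-, from 19.3 to 25.7 (median 22.2) in Q140 Msh3+/- and from 22.4 to 27.7 (median 24.5) in Q140. It ran from 19.1 to 22.5 CPM (median 20.6) in Msh3-/-, from 18.8 to 23.5 (median 21.7) in Msh3+/- and from 18.9 to 22.7 (median 21.4) in wild type. The Q140 range lay at the top and met the wild type range only at its lower end. The log2 fold change was 0.20 (SE 0.05) in Q140 against wild type (edgeR adjusted p = 0.00222), a rise of 1.15-fold, and it was called in all 14 other settings and with each of the 15 libraries left out. In libraries labelled Q140 Msh3-/- Trp53 fell by 0.15 on the log2 scale against Q140 (SE 0.05, edgeR adjusted p = 0.0248). That call was lost with plate column as a covariate (adjusted p up to 0.16 over the settings) and on leaving out Q140 F4 or M1 or Q140 Msh3-/- F3, F4 or M2, with a change of -0.18 to -0.12 and an adjusted p of at most 0.0818 over the 16 fits with a library left out. In Q140 Msh3+/- the change against Q140 was -0.13 (edgeR adjusted p = 0.122).

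Mdm2 (ENSMUSG00000020184; chr10:117688875-117710758, - strand), the ligase that marks p53 for degradation and is itself a p53 target, stayed within a narrow band. It ran from 56.1 to 65.6 CPM (median 59.9) in Q140 Msh3-/-, 54.4 to 65 (median 62.1) in Q140 Msh3+/- and 57.8 to 70.1 (median 59.7) in Q140. It ran from 54.9 to 61.4 CPM (median 57.9) in Msh3-/-, 50.7 to 61.6 (median 59.2) in Msh3+/- and 57.1 to 60.8 (median 58.2) in wild type. All of these ranges overlapped. The change in Q140 against wild type was 0.05 with a 95% interval of -0.03 to 0.13 (edgeR adjusted p = 0.383), and in Q140 Msh3-/- against Q140 it was -0.01 (-0.09 to 0.06). With scaling by library totals the first of these became 0.13 with an adjusted p of 0.0137. Q140 F4 was highest of its group in Trp53, Mdm2 and Bax, and Q140 M2 was lowest in Trp53, Mdm2, Bax and Plk2.

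Of the targets that act on the cell cycle, Plk2 and Cdkn1a fell in Q140 and Ccng1 was not detectably different. Cdkn1a encodes p21, the inhibitor of cyclin-dependent kinases through which p53 halts the cell cycle; Ccng1 encodes cyclin G1, which takes part in the feedback between p53 and Mdm2; Plk2 encodes a polo-like kinase that in neurons is induced by activity and weakens synapses. Plk2 (ENSMUSG00000021701; chr13:110395046-110400844, + strand) ran from 262 to 296 CPM (median 279) in Q140 Msh3-/-, 228 to 294 (median 257) in Q140 Msh3+/- and 207 to 260 (median 242) in Q140. It ran from 269 to 329 CPM (median 302) in Msh3-/-, 263 to 323 (median 296) in Msh3+/- and 239 to 321 (median 284) in wild type. The Q140 libraries were the lowest group, and every Q140 Msh3-/- library exceeded every Q140 library, a separation seen in 0.946% of all genes. In Q140 against wild type the ranges of all 10 genes overlapped, and 3.52% of all genes had ranges that did not. The log2 fold change was -0.23 (SE 0.05, edgeR adjusted p = 0.00052) in Q140 against wild type and 0.22 (SE 0.05, adjusted p = 0.000933) in Q140 Msh3-/- against Q140. Both calls were kept in every other setting and with every library left out. Plk2 also fell in Q140 Msh3+/- against Msh3+/- (-0.20, SE 0.05, edgeR adjusted p = 0.00442), a call that missed the threshold with plate row as a covariate (adjusted p = 0.0518). In Q140 Msh3-/- against Msh3-/- the change was -0.10 (edgeR adjusted p = 0.732), and the interaction of Q140 with Msh3-/-, which tests whether the Q140 effect differs between Msh3 genotypes, was 0.13 (adjusted p = 0.36).

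Plk2 and the markers of medium spiny neurons were both lowest in Q140, but they did not keep step in every group. The summed level of the 13 markers was 13600 to 15700 CPM in Q140 Msh3-/-, 12300 to 14800 in Q140 Msh3+/-, 9010 to 13500 in Q140, 16300 to 18000 in Msh3-/-, 16000 to 19000 in Msh3+/- and 15700 to 17900 in wild type. In Q140 against wild type 12 of the 13 fell and 1 rose (median -0.57), and in Q140 Msh3-/- against Q140 12 rose and none fell (median 0.41). Mean Plk2 was 280 CPM in Q140 Msh3-/- and 281 in wild type, while the mean marker sum was 14800 and 16900. Without Q140, the Plk2 change against wild type was 0.09 in Msh3-/- and 0.08 in Msh3+/-, neither called. The marker medians there were 0.03 and 0.035. In these bulk samples fewer cells of a type and less RNA per cell cannot be told apart, and the part of either in the changes of Plk2 and of the other genes was not tested. Genes that neurons switch on with activity were also counted, in a list of 25 that includes Plk2 and its own calls. In Q140 against wild type 11 fell and none rose (median -0.32). In Q140 Msh3-/- against Q140 5 rose, none fell and 20 were not called (median 0.06). Among all genes tested, 10.2% fell in Q140 against wild type and 6.85% rose in Q140 Msh3-/- against Q140.

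Cdkn1a was lower in Q140 by the largest fold of the 10 genes, but with the widest error. Cdkn1a (ENSMUSG00000023067; chr17:29090976-29100727, + strand) ran from 8.69 to 16.1 CPM (median 12.3) in Q140 Msh3-/-, 8.07 to 25 (median 9.9) in Q140 Msh3+/- and 9.02 to 14.5 (median 10.3) in Q140. It ran from 10.3 to 16.4 CPM (median 12.8) in Msh3-/-, 9.93 to 17.6 (median 13.4) in Msh3+/- and 12.2 to 17.1 (median 15.1) in wild type. Most Q140 libraries lay below the lowest wild type library, with an overlap at the upper end. The change in Q140 against wild type was -0.45 (SE 0.16, 95% interval -0.77 to -0.14, edgeR adjusted p = 0.0364), or 0.73-fold. The direction was kept throughout, at -0.52 to -0.32, but the call was lost in 5 of 14 other settings (library totals, no count filter, the replicate block, plate column, and FPKM with no filter; adjusted p of at most 0.0881). It was also lost on leaving out any of Q140 F1, F2, M1, M3 and M4 and wild type F1, F3, M1 and M2 (adjusted p of at most 0.0761). The spread was estimated over all 48 libraries, so Q140 Msh3+/- F1, described below, entered it. All 15 fits with a library left out kept that library. The call was kept without the 4 libraries that stood apart in a marker list, that library among them. Over all 29 other fits the adjusted p ran from 0.0043 to 0.0881. In Q140 Msh3-/- against Q140 the change was 0.21, with an interval of -0.10 to 0.52 (edgeR adjusted p = 0.428). Of the exon bases of Cdkn1a, 7.7% overlap a gene on the opposite strand, AC167363.2; the libraries were stranded, but whether counting used the strand is not given in the sources used here.

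A single library decided the Cdkn1a value in the Q140 Msh3+/- group. Q140 Msh3+/- F1 had 25 CPM of Cdkn1a against 8.07 to 13.5 in the other 7 libraries of its group, and 54.8 CPM of Ccng1 against 35.7 to 44.2. The same library held 4300 summed CPM of 7 choroid plexus and ependymal markers, followed by 634 in wild type M2 and 264 in wild type M1, with Ttr at 3950 CPM against a median of 11.6 in the other libraries. All 7 markers were above the median of the other 47 libraries in it, among them Kl at 178 CPM against 4.28 and Otx2 at 15.8 against 0.384. Over the groups the summed level of these markers was 43.3 to 84.6 CPM in Q140 Msh3-/-, 40.4 to 4300 in Q140 Msh3+/-, 32.9 to 75.9 in Q140, 42.4 to 65.2 in Msh3-/-, 25.6 to 103 in Msh3+/- and 26.4 to 634 in wild type. Wild type M1 and M2 thus exceeded every Q140 library in these markers. The part of this in the Cdkn1a change in Q140 against wild type was not tested. With all libraries the Cdkn1a change was -0.14 (edgeR adjusted p = 0.68) in Q140 Msh3+/- against Msh3+/- and 0.14 (adjusted p = 0.72) against Q140. Without Q140 Msh3+/- F1 these became -0.40 (edgeR adjusted p = 0.0188) and -0.12 (adjusted p = 0.709), so that the count of called genes in Q140 Msh3+/- against Msh3+/- became 2 in place of 1. Without all 4 libraries that stood apart in a marker list, they were -0.34 (edgeR adjusted p = 0.0724) and -0.11 (adjusted p = 0.714).

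**Figure D3:**
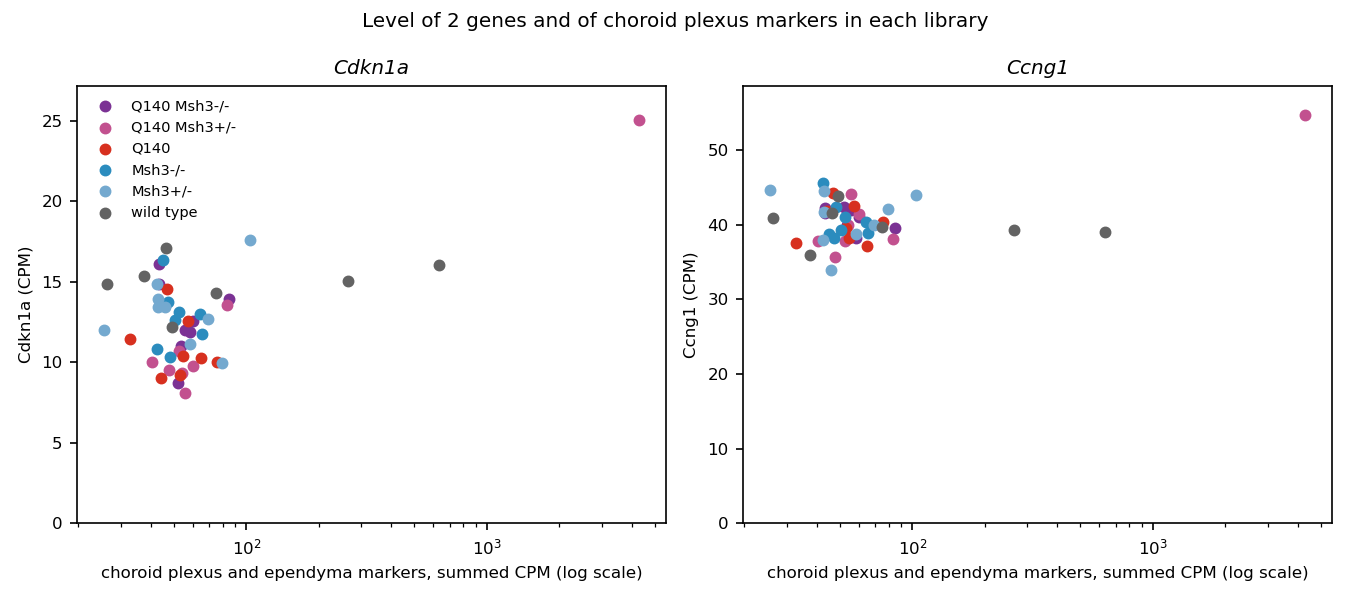
Cdkn1a (left) and Ccng1 (right) in CPM against the summed CPM of 7 choroid plexus and ependymal markers on a logarithmic axis, for each of the 48 libraries coloured by group. Q140 Msh3+/- F1, at 4300 summed CPM, is the library with the highest level of both genes. Wild type M2, at 634, is at 16.05 CPM of Cdkn1a and 38.99 CPM of Ccng1.

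Ccng1 (ENSMUSG00000020326; chr11:40748552-40755311, - strand) was the least moved of the cell-cycle genes. It ran from 38.2 to 42.4 CPM (median 41.3) in Q140 Msh3-/-, 35.7 to 54.8 (median 39) in Q140 Msh3+/- and 37.1 to 44.2 (median 40) in Q140. It ran from 38.2 to 45.6 CPM (median 39.8) in Msh3-/-, 34 to 44.6 (median 41.7) in Msh3+/- and 35.9 to 43.8 (median 39.7) in wild type. The 6 ranges overlapped. The change in Q140 against wild type had a 95% interval of -0.12 to 0.12 (edgeR adjusted p = 0.989), and that in Q140 Msh3-/- against Q140 one of -0.09 to 0.14 (adjusted p = 0.84); the sign of both turned under other scalings.

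Of the apoptosis genes, Bax rose slightly in Q140 and Bbc3 did not pass the test. Bax encodes the effector that opens the outer mitochondrial membrane, and Bbc3 encodes Puma, a BH3-only protein that activates it. Bax (ENSMUSG00000003873; chr7:45461697-45466898, - strand) ran from 20.6 to 22.4 CPM (median 21.7) in Q140 Msh3-/-, 20.9 to 24.8 (median 21.8) in Q140 Msh3+/- and 20.7 to 24.5 (median 23) in Q140. It ran from 19.4 to 21.7 CPM (median 20.6) in Msh3-/-, 20.3 to 23.4 (median 21) in Msh3+/- and 18.6 to 22.4 (median 20.9) in wild type. The Q140 group had the highest median, and its range overlapped that of wild type. The change in Q140 against wild type was 0.13 (SE 0.04, edgeR adjusted p = 0.00828). It missed the threshold only when the fit held only the groups compared (adjusted p = 0.0539). In Q140 Msh3-/- against Q140 the change was -0.09 (edgeR adjusted p = 0.123), and with scaling by library totals it was -0.15 (adjusted p = 0.00369). Of the exon bases of Bax, 12.2% are shared on the same strand with Gm45808, which is not a row of the count table.

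Bbc3 (ENSMUSG00000002083; chr7:16308393-16318205, + strand) was the rarest of the 10 genes. It ran from 2.81 to 4.92 CPM (median 3.39) in Q140 Msh3-/-, 2.58 to 3.97 (median 3.68) in Q140 Msh3+/- and 2.97 to 4.66 (median 3.85) in Q140. It ran from 2.45 to 4.42 CPM (median 3.64) in Msh3-/-, 3.07 to 5.84 (median 3.85) in Msh3+/- and 2.9 to 4.3 (median 3.36) in wild type. The ranges overlapped. The interval of its change in Q140 against wild type, -0.14 to 0.36, leaves room for changes as large as those called in Trp53 and Bax (edgeR adjusted p = 0.595).

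The stress-linked targets differed among themselves. Sesn2 encodes sestrin 2, which restrains mTORC1 signalling and is also induced by ATF4; Phlda3 encodes a pleckstrin-homology domain protein that represses Akt; Zmat3 encodes a zinc finger protein that binds RNA and regulates splicing. Sesn2 and Phlda3 were lower in libraries labelled Q140 Msh3-/- than in Q140, and Zmat3 was lower in Q140 than in wild type. Sesn2 (ENSMUSG00000028893; chr4:132492032-132510501, - strand) ran from 5.23 to 7.91 CPM (median 5.75) in Q140 Msh3-/-, 5.35 to 7.32 (median 5.96) in Q140 Msh3+/- and 6.67 to 8.66 (median 7.13) in Q140. It ran from 5.43 to 6.81 CPM (median 5.88) in Msh3-/-, 5.91 to 7.05 (median 6.28) in Msh3+/- and 5.31 to 7.29 (median 6.37) in wild type. The Q140 group was the highest, and the other 5 groups had similar medians. Sesn2 fell by 0.27 on the log2 scale in Q140 Msh3-/- against Q140 (SE 0.07, edgeR adjusted p = 0.00778), in all 14 other settings and with each of the 16 libraries left out. The change in Q140 against wild type, 0.20 (SE 0.07), missed the threshold (edgeR adjusted p = 0.0539) and passed it with scaling by library totals (0.28, adjusted p = 0.00519). In Q140 Msh3+/- against Q140 the change was -0.24 (edgeR adjusted p = 0.0606).

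Phlda3 (ENSMUSG00000041801; chr1:135766119-135769136, + strand) had a lower median in each group with a mutant Msh3 label than in its Msh3 wild type counterpart, but passed the test in only 1 of these comparisons. It ran from 4.16 to 6.42 CPM (median 5.65) in Q140 Msh3-/-, 4.65 to 6.53 (median 5.48) in Q140 Msh3+/- and 5.05 to 8.27 (median 6.64) in Q140. It ran from 5.35 to 7.91 CPM (median 5.62) in Msh3-/-, 4.55 to 6.18 (median 5.55) in Msh3+/- and 5.86 to 7.84 (median 6.7) in wild type. The Q140 and wild type medians were thus alike, and the 4 groups labelled with a mutant Msh3 allele had lower medians. Phlda3 fell by 0.29 in Q140 Msh3-/- against Q140 (SE 0.09, edgeR adjusted p = 0.0225). This call was lost with plate row as a covariate or with only the groups compared (adjusted p of at most 0.166 over the settings) and without Q140 F1 or Q140 Msh3-/- M1 (adjusted p of at most 0.0818). The changes were -0.26 in Q140 Msh3+/- against Q140 (edgeR adjusted p = 0.105), -0.29 in Msh3+/- against wild type (adjusted p = 0.988) and -0.19 in Msh3-/- against wild type (adjusted p = 1). In Q140 against wild type it was -0.01 (-0.20 to 0.17), with a sign that turned with the scaling.

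Zmat3 (ENSMUSG00000027663; chr3:32334792-32366014, - strand) showed a wide spread in Q140. It ran from 128 to 151 CPM (median 140) in Q140 Msh3-/-, 121 to 150 (median 141) in Q140 Msh3+/- and 102 to 149 (median 131) in Q140. It ran from 132 to 154 CPM (median 141) in Msh3-/-, 125 to 158 (median 145) in Msh3+/- and 135 to 161 (median 142) in wild type. The Q140 range reached far lower than the others but overlapped each of them. The change in Q140 against wild type was -0.17 (SE 0.05, edgeR adjusted p = 0.0228). It was -0.09 with an adjusted p of 0.156 when libraries were scaled by their totals, was also lost on the FPKM scale and with only the groups compared (adjusted p of at most 0.234), and was lost without Q140 F1, F4 or M1 or wild type M4 (-0.21 to -0.13, adjusted p of at most 0.08). In Q140 Msh3-/- against Q140 the change was 0.13 (edgeR adjusted p = 0.104), and in Q140 Msh3+/- against Q140 it was 0.12 (adjusted p = 0.232).

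**Figure D4:**
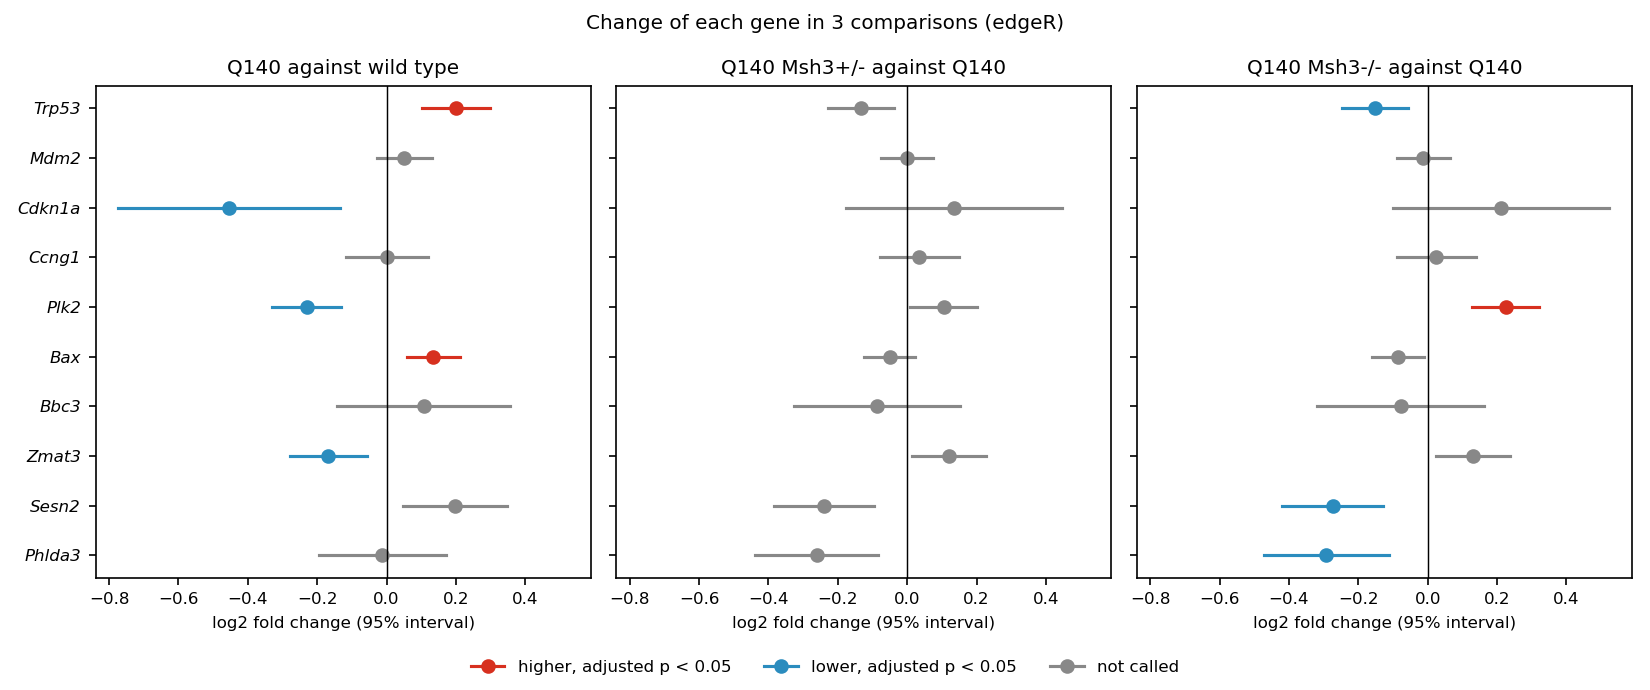
Log2 fold change of each gene (points) with its 95% interval (lines) in 3 comparisons that share the Q140 libraries; red marks a rise and blue a fall at an adjusted p under 0.05 in edgeR. In Q140 against wild type Trp53 and Bax lie to the right and Cdkn1a, Plk2 and Zmat3 to the left, while in Q140 Msh3-/- against Q140 Plk2 lies to the right and Trp53, Sesn2 and Phlda3 to the left.

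Without Q140, no difference along the Msh3 labels was called in the 10 genes. The edgeR count was 0 in Msh3-/- against wild type, beside 0.03% of all genes, and 0 in Msh3+/- against wild type, beside 0.01%. DESeq2 called 0 in each. In each, 1 gene had an unadjusted p under 0.05 in edgeR, beside 807 and 943 of all 19975 genes tested. The changes ran from -0.23 to 0.09 in Msh3-/- and from -0.29 to 0.23 in Msh3+/-. On an Msh3-/- background, Q140 Msh3-/- against Msh3-/- also gave 0 in edgeR and in DESeq2, beside 0.0751% of all genes. There, 1 had an unadjusted p under 0.05 in edgeR, beside 1342 of all genes, and the changes ran from -0.11 to 0.09. The interaction of Q140 with Msh3-/- gave 0 in both tools beside 2.39% of all genes, and that with Msh3+/- gave 0 in both beside 0%. In edgeR 1 and 2 of the 10 had an unadjusted p under 0.05, beside 3053 and 1621 of all genes. Thus no member was shown to respond to Q140 differently between Msh3 genotypes. Between males and females the count was 0 in edgeR and in DESeq2, beside 2.93% of all genes, and the changes ran from -0.05 to 0.03. At an unadjusted p under 0.05 in edgeR it was also 0, beside 3601 of all genes.

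Other genes of the pathway were called in both directions. Of all genes tested, 9.64% rose and 10.2% fell in Q140 against wild type. In Q140 Msh3-/- against Q140, 6.85% rose and 5.04% fell. Scaled by library totals, 5076 of 19975 genes rose and 1104 fell in the first, and 804 rose and 3463 fell in the second. Counts in the lists below stand beside these shares, and a count near them says nothing particular about its list. Of 32 other p53 target genes with enough reads, 4 rose and 1 fell in Q140 against wild type and 27 did not pass (median 0.06). Those that rose included Cpt1c, a neuronal carnitine palmitoyltransferase, with 114 to 129 CPM in Q140 and 100 to 111 in wild type (0.20, SE 0.03, edgeR adjusted p = 8.72e-06). Rrm2b, the p53-inducible ribonucleotide reductase subunit, also rose (0.19, edgeR adjusted p = 0.000254), as did the phosphatase gene Ptp4a3 (0.19, adjusted p = 0.00775). Ephx1, an epoxide hydrolase, fell by 0.43 (edgeR adjusted p = 0.00032). In libraries labelled Q140 Msh3-/- against Q140, 1 of the 32 rose and 2 fell: Cpt1c fell by 0.13 (edgeR adjusted p = 0.00296), Rrm2b fell by 0.12 (adjusted p = 0.0275) and Ephx1 rose by 0.26 (adjusted p = 0.0406). With scaling by library totals 11 rose and 1 fell in Q140 and 0 rose and 7 fell in Q140 Msh3-/- against Q140, with Ephx1 no longer called in the second.

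Among 20 regulators of p53, 2 rose and 2 fell in Q140 against wild type, and 6 rose and 1 fell with scaling by library totals. Mdm4, a partner of Mdm2 that holds p53 inactive, rose by 0.12 (edgeR adjusted p = 0.0143), and Ppp1r13l, which encodes the inhibitor iASPP, rose by 0.26 (adjusted p = 0.0401). Ppm1d, the gene for the phosphatase Wip1 that switches p53 signalling off, fell by 0.29 (edgeR adjusted p = 0.00214). The deubiquitinase Usp7 fell by 0.10 (edgeR adjusted p = 0.0102), which was -0.02 (adjusted p = 0.525) with scaling by library totals. Only Ppp1r13l of the 20 passed in Q140 Msh3-/- against Q140 (-0.26, edgeR adjusted p = 0.0475), and it missed the threshold with RLE scaling (adjusted p = 0.0544). There, 0 of the 20 rose and 6 fell with scaling by library totals. Of 23 genes of the DNA damage response and break repair, 4 rose and 2 fell in Q140, and 5 rose and 1 fell with scaling by library totals. The break repair genes Prkdc (0.25, edgeR adjusted p = 5.67e-05), with 67.2 to 81.2 CPM in Q140 and 56.3 to 71.6 in wild type, and Xrcc5 (0.21, adjusted p = 0.00356) rose, and Gadd45a, a damage-inducible gene and p53 target, fell by 0.44 (adjusted p = 0.00217). H2afx, the gene for the histone variant that is phosphorylated at breaks, fell by 0.19 (edgeR adjusted p = 0.0292), which was -0.11 (adjusted p = 0.191) with scaling by library totals. Xrcc4 alone of the 23 passed in Q140 Msh3-/- against Q140 (0.15, edgeR adjusted p = 0.0463). With scaling by library totals Xrcc4 was no longer called (0.08, adjusted p = 0.252), and 0 of the 23 rose and 4 fell.

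Bcl-2 family and caspase genes gave a larger change than any of the 10 genes. Of 20 tested, 3 rose and 1 fell in Q140 against wild type; with scaling by library totals 7 rose and 1 fell. In Q140 Msh3-/- against Q140, 2 rose and 1 fell, and 1 rose and 5 fell with scaling by library totals. Hrk, which encodes a neuronal BH3-only activator of apoptosis, ran from 52.6 to 72 CPM in Q140 Msh3-/-, 47.8 to 66 in Q140 Msh3+/-, 30.6 to 53.4 in Q140, 63.3 to 88 in Msh3-/-, 65.3 to 78.2 in Msh3+/- and 60.6 to 78.7 in wild type. The Q140 range thus lay wholly below that of wild type, and Hrk fell by 0.84 (SE 0.09, edgeR adjusted p = 2.74e-09). Bid, which encodes a BH3-only protein that links death receptors to mitochondria, rose by 0.32 (edgeR adjusted p = 0.0264). In libraries labelled Q140 Msh3-/- against Q140, Hrk rose by 0.66 (SE 0.09, edgeR adjusted p = 1.06e-06). The interaction of Q140 with Msh3-/- passed for Hrk, 1 of the 20 (0.65, SE 0.12, edgeR adjusted p = 0.00238), beside 2.39% of all genes. It uses the same libraries as the comparisons that named Hrk.

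Relatives of the 10 genes went in both directions. Of 17 tested, 2 rose and 4 fell in Q140 against wild type, and 4 rose and 4 fell with scaling by library totals. Plk5, a polo-like kinase gene expressed in brain, ran from 12.7 to 23.8 CPM in Q140 Msh3-/-, 11.6 to 20.8 in Q140 Msh3+/-, 9.78 to 15.8 in Q140, 20.9 to 27.6 in Msh3-/-, 24.3 to 31.2 in Msh3+/- and 21.8 to 36.8 in wild type. It fell by 1.15 (SE 0.12, edgeR adjusted p = 2.3e-09) in Q140 against wild type, where the ranges did not overlap, and Ccng2 (-0.23, adjusted p = 2.11e-05), Sesn3 (-0.29, adjusted p = 3.29e-05) and Zmat4 (-0.33, adjusted p = 0.000113) fell with it. Among these relatives 4 rose and 2 fell in Q140 Msh3-/- against Q140 (3 and 3 with scaling by library totals), with rises in Plk5 (0.64, edgeR adjusted p = 0.000243), Ccng2 (0.22, adjusted p = 6.61e-05) and Sesn3 (0.24, adjusted p = 0.000655). The interaction of Q140 with Msh3-/- passed for these 3 of the 17, beside 2.39% of all genes. It was 0.79 for Plk5 (edgeR adjusted p = 0.00657), 0.19 for Ccng2 (adjusted p = 0.0475) and 0.25 for Sesn3 (adjusted p = 0.0481). The interaction uses the same libraries as the comparisons that named these genes, so it is not separate support. Of 14 genes of the integrated stress response, a list that includes Sesn2, 1 rose and 2 fell in Q140 against wild type and in Q140 Msh3-/- against Q140. Sesn2 itself was among the 2 that fell in Q140 Msh3-/- against Q140. Scaled by library totals, 3 rose and 1 fell in Q140 against wild type, and 0 rose and 6 fell in Q140 Msh3-/- against Q140. Without the 4 libraries that stood apart in a marker list, 0 rose and 1 fell in Q140 against wild type. Of all 20019 genes in that fit, 1645 rose and 1953 fell. In Q140 the cystine transporter gene Slc7a11 fell by 0.39 (edgeR adjusted p = 0.00247), and in Q140 Msh3-/- against Q140 the transcription factor gene Atf4 fell by 0.20 (adjusted p = 0.019). Some genes stand in more than 1 list: Mdm4, for example, is both a regulator and a relative.

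**Figure D5:**
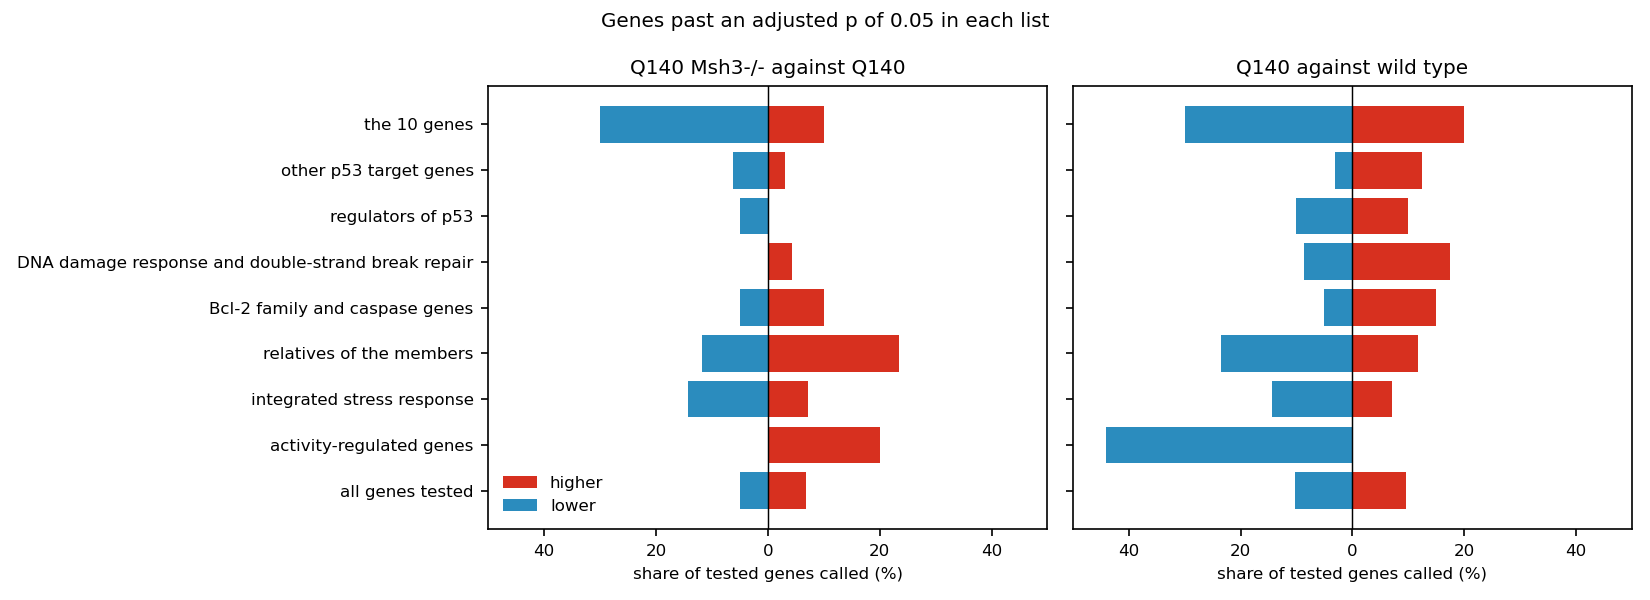
Share of tested genes called higher (right) or lower (left) in edgeR at an adjusted p under 0.05, in percent, for the 10 genes, 7 pathway lists and all genes tested, in Q140 Msh3-/- against Q140 and in Q140 against wild type. In Q140 against wild type, activity-regulated genes have the largest lower share, with 11 of 25 (Plk2 among them), beside 10.2% of all genes tested. The bars of the 10 genes and of the lists rest on few genes each.

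Markers of other cell types were also counted. In Q140 against wild type 5 of 10 astrocyte markers, 5 of 10 endothelial and mural markers, 3 of 10 microglia markers, 2 of 8 interneuron markers, 1 of 10 oligodendrocyte markers and 1 of 6 precursor markers fell and none rose. With scaling by library totals these counts were 2, 2, 1, 1, 0 and 0. Among all genes tested 10.2% fell, and 1104 of 19975 fell with scaling by library totals. Without the 4 libraries that stood apart in a marker list, 1953 of 20019 fell. None of 7 choroid plexus markers passed (median -0.68), but 1 fell with scaling by library totals and 3 fell without the 4 libraries that stood apart. None of 5 blood markers passed (median -1.05), and 1 of 6 cortical markers rose. No marker of these lists was at 0 in all libraries. The part of these cell types in the values of the 10 genes was not tested.

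The genes whose levels ran most closely with each of the 10 across the 48 libraries, among 13849 searched, were read as a description; the libraries share genotype, depth and dissection. Zmat3 ran closest with Gfod1 (Pearson r = 0.872, Spearman rho = 0.755), and the correlation was 0.839 after group means were removed. Plk2 ran closest with Ppp1ca (r = 0.863, rho = 0.832) and with the medium spiny neuron gene Ppp1r1b (r = 0.845, rho = 0.83), and within groups the correlations were 0.646 for Ppp1ca and 0.568 for Ppp1r1b. Cdkn1a ran closest with Plat (r = 0.792, rho = 0.814; 0.75 within groups), Phlda3 with Lamp1 (r = 0.782, rho = 0.742), Ccng1 with Cdh19 (r = 0.774, rho = 0.691), Trp53 with Rnf25 (r = 0.759, rho = 0.672) and Bax with Psmc4 (r = 0.753, rho = 0.567). The closest partners of Sesn2 (Tmem25, r = 0.667, rho = 0.569), Mdm2 (Clk1, r = 0.644, rho = 0.582) and Bbc3 (Prrt2, r = 0.642, rho = 0.538) were less close. No member was the closest partner of another, since members were left out of the search.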

How the data were processed

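Striatal RNA was sequenced from libraries made with a stranded TruSeq kit after RNeasy extraction, per the labels' protocols. HTSeq 0.12.3, STAR 2.7.5c and SAMtools 1.10 are named in the submitters' processing notes, as are mm10 and GRCm38 for the genome; the annotation release, strand setting and gene lengths are not given in the sources used here. The deposited count table holds whole, unscaled reads per gene. The deposited FPKM table, made by the authors, equals those counts divided by the library total and a fixed length in all 19975 genes (relative tolerance 1e-06). No other columns per sample were present.

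Counts were fitted in R 4.3.3 with edgeR 4.0.16 over all 48 libraries: filterByExpr by group (minimum count 10, minimum total 15), TMM scaling (factors 0.956 to 1.09), group means with sex as a covariate, robust glmQLFit, two-sided glmQLFTest, and Benjamini-Hochberg adjustment over all genes with a threshold of 0.05. CPM used TMM-scaled totals. Intervals are 95%. Interactions subtract the Q140 effect in Msh3 wild type from that in Msh3 mutants. Alternatives were RLE scaling, library totals, no count filter and a stricter one (1 CPM in 24 libraries), no sex covariate, a replicate block, plate column or row, only the groups compared, DESeq2 1.42.0, limma 3.58.1 on log2 FPKM (offsets 0.1 and 1, with and without a filter of 0.5 FPKM in 7 libraries), and each library left out. A fit without 4 libraries that stood apart in a marker list, and the recount of the lists under other scalings, were chosen after seeing the data. The pipeline was tested on simulated counts.

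Named genes are the 10 members, Msh3, up to 4 called genes per list by smallest p in Q140 against wild type and in Q140 Msh3-/- against Q140, and the closest genes by correlation (sex removed, average log2 CPM of at least 1). Some genes that this rule names are not reported here. Members and lists were chosen with earlier results of these data known. Coordinates come from GENCODE on GRCm38 and promoters from RefSeq on GRCm38.p6. Libraries of the same sex and replicate number did not vary together (18 of 115 pairs correlated above 0.1), and none of the 169 pairs of libraries within a group agreed within sampling noise. No library went against its sex label.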

Additional observations from a re-analysis of the deposited data

Results flagged for a closer look

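In 9 of 60 sets of a gene and a group, a single library stood apart from the rest of its group in CPM by Dixon's gap test; chance flags about 1 in 20. Cdkn1a in Q140 Msh3+/- F1 was at 25, against 8.07 to 13.5 in the other libraries of the group, and Ccng1 in the same library was at 54.8, against 35.7 to 44.2. Bax in Q140 Msh3+/- F4 was at 24.8, against 20.9 to 22.4. Mdm2 in Q140 F4 was at 70.1, against 57.8 to 61.3, and Mdm2 in Msh3+/- F4 was low at 50.7, against 56.2 to 61.6. Sesn2 was at 7.91 in Q140 Msh3-/- M4, against 5.23 to 6.33, and at 7.05 in Msh3+/- M4, against 5.91 to 6.46. Phlda3 in Msh3-/- F2 was at 7.91, against 5.35 to 6.01. Zmat3 in wild type M4 was at 161, against 135 to 145.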

How the results depend on the processing

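Single-gene changes were counted for every member in Q140 against wild type and in Q140 Msh3-/- against Q140, and only for some members elsewhere. Under other settings, 437 of these values kept their direction and side of the threshold, and 15 turned sign. Another 23 passed the threshold newly and 15 lost it. With a library left out the counts were 552, 15, 12 and 20. Changes outside this set were not counted, and signs turned there too. With library totals, Mdm2 in Q140 Msh3+/- against Q140 went from 0.000302 to -0.0341. Sesn2 in Q140 Msh3+/- against Msh3+/- went from -0.0239 to 0.0293. The counted values that turned sign are given on the log2 scale. For Ccng1 in Q140 against wild type they were -0.00622 (RLE), -0.00626 (DESeq2) and -0.0276 (without the 4 libraries that stood apart), and -0.0308 to 0.019 with a library left out. For Phlda3 in Q140 against wild type they were 0.0695 (library totals), 0.0278 (plate column), 0.0575 (FPKM + 0.1, with or without the filter) and 0.0493 (FPKM + 1), and -0.0585 to 0.0378 with a library left out. For Ccng1 in Q140 Msh3-/- against Q140 they were -0.0393 (library totals), -0.0327 (plate column), -0.0371 (FPKM + 0.1, with or without the filter) and -0.0346 (FPKM + 1). Mdm2 there was 0.00756 with plate column and -0.0308 to 0.0207 with a library left out. Cdkn1a in Q140 Msh3+/- against Q140 was -0.113 without the 4 libraries and -0.117 to 0.203 with a library left out. The cause was not tested.

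The 5 calls in Q140 against wild type became 3 with only the groups compared and 3 to 6 with a library left out (3 without Q140 F1 or Q140 M1). The 0 calls in Q140 Msh3+/- against Q140 became 1 with library totals or DESeq2, 2 with FPKM at either offset, and 0 to 2 with a library left out (2 without Q140 F3; 1 without Q140 M4 or Q140 Msh3+/- F4 or M3). The 1 call in Q140 Msh3+/- against Msh3+/- became 2 with library totals or FPKM at either offset, 0 with plate row, and 1 to 2 with a library left out (2 without Q140 Msh3+/- F1). With the replicate block 4 genes were called in Q140 against wild type and 4 in Q140 Msh3-/- against Q140; numbers did not pair the libraries, as 15 of 48 correlated best with their own number. The counts in this paragraph are not set beside the share of all genes called in the same fit, which also changed with the setting. In Q140 against wild type, 1926 of all genes rose and 2043 fell with TMM, and 5076 rose and 1104 fell with library totals. A changed count therefore says nothing particular about these members. The lists were recounted only under other scalings and without the 4 libraries. Counts of 90 to 266 limit the precision for Bbc3.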
